A study of Mus musculus with 20 samples.

Results

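The sulfotransferase genes described here are 10 of the 25444 loci in a gene expression table of mouse liver, chosen by gene symbol: Sult1a1, Sult1b1, Sult1c2, Sult1d1, Sult1e1, Sult2a1, Sult2a2, Sult3a1, Sult5a1 and Gm4794, the locus that RefSeq now names Sult3a2. RNA-seq was performed on the left lateral lobe of 20 livers, from 5 females and 5 males of C57BL/6N (B6) and 5 females and 5 males of C3H/HeN (C3), all at 20 weeks of age and with no treatment named in the labels. All mice came from 1 supplier and were housed singly. The 2 sexes lived in different rooms, and an effect of the room cannot be told apart from that of sex. Both strains are inbred, and each library is 1 animal, sequenced in 1 of 3 pools to which the libraries had been assigned at random.

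Cytosolic sulfotransferases transfer a sulfate group from the donor PAPS (phosphoadenosine phosphosulfate) to small molecules such as steroids, bile acids, thyroid hormones, catecholamines and drugs, which makes most of them more water soluble and easier to excrete. The liver is a main site of this reaction. In rodents several of these genes are known to be expressed mainly in females, a pattern that depends on the sex-specific rhythm of pituitary growth hormone and on liver factors that respond to it, among them STAT5, HNF6 and CUX2.

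The table held 27370921 to 46835745 counted read pairs per library. All 10 libraries labelled F had more Xist than Ddx3y counts and all 10 labelled M the reverse. Summed hepatocyte marker levels (Alb, Apoa1, Ttr, Cps1, Serpina1a and Tat) ranged from 79444 to 173847 TPM, a level scaled for transcript length and depth, over the 20 livers. Summed kidney tubule markers stayed at or below 0.059 TPM. The sulfotransferase genes lie at 6 places in the genome (mm9). Sult1b1 (chr5:87942364-87967220), Sult1d1 (chr5:87983675-87998031) and Sult1e1 (chr5:88004993-88020636) are neighbours on the minus strand, with gaps of 16.5 and 6.96 kb. Sult2a1 (chr7:14381595-14422759, minus strand) and Sult2a2 (chr7:14318855-14364986, plus strand) are 16.6 kb apart. Sult3a1 (chr10:33577528-33599281, plus strand) and Gm4794 (chr10:33486230-33501921, minus strand) are 75.6 kb apart. Sult1a1 (chr7:133816384-133819871), Sult1c2 (chr17:53968962-53985283) and Sult5a1 (chr8:125666747-125682180), all on the minus strand, stand alone.

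RefSeq promoter sequences (build GRCm38.p6, from 250 bases before to 50 bases after the start of transcription) were at hand for 8 of the 10 genes. None was at hand for Sult2a1 and Sult2a2. The printed windows include those of Sult3a1 (chr10:33857472-33857771, plus strand) and Gm4794 (chr10:33782066-33782365, minus strand), a pair nearly absent from males. Also printed is that of Sult1c2 (chr17:53845909-53846208, minus strand), a gene called by sex in both strains and by strain in both sexes. Capitals mark exact matches on either strand to 1 of 3 patterns. The STAT5 site was searched as TTCNNNGAA. The HNF6 site, where HNF6 is also known as Onecut1, was searched as ATCAAT. The pattern used for CUX2, a factor of female liver, was ATCGAT. None of the 3 overlapped another in these windows.
Sult3a1: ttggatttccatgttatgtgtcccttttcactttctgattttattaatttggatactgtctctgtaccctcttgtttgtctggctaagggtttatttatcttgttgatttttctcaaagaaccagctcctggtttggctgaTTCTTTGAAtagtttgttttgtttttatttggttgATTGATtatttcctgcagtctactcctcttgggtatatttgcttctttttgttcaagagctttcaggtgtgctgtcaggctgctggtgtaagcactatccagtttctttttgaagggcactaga
Gm4794: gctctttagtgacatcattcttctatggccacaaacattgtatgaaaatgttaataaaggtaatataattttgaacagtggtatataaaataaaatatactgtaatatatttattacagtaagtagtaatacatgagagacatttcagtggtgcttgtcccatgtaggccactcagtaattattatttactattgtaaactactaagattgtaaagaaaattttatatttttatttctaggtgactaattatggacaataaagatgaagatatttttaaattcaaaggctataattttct
Sult1c2: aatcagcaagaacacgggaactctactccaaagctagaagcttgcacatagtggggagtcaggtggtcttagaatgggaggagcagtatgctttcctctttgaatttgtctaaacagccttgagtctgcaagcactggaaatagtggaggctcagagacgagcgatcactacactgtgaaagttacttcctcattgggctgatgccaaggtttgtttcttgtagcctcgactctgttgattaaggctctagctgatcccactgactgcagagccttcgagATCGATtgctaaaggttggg

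In the Sult3a1 promoter the STAT5 letters TTCTTTGAA lay at -109 to -101 and the HNF6 letters at -74 to -69, counted from the start of transcription. The STAT5 pattern was present in 8.3% of 32851 mouse promoters of the same length and the HNF6 pattern in 7.54%. The Gm4794 promoter held neither, and its GC content was 25.7% against 37.3% for Sult3a1. In Sult1c2 the CUX2 letters lay at 31 to 36 after the start, a pattern found in 0.925% of promoters. The nuclear receptor motif AGGTCA (16.3% of promoters) was matched at 2 positions in Sult1b1 and at 1 in Sult1e1. No match to any of the 4 patterns was found in these windows for Sult1a1, Sult1d1 and Sult5a1. These matches are descriptions of letters and no binding was measured.

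Female and male livers of each strain were compared first. In both strains 6 of the 10 genes were higher in females and none was lower: Sult1a1, Sult1c2, Sult2a1, Sult2a2, Sult3a1 and Gm4794. A call required an adjusted p under 0.001 by edgeR's quasi-likelihood test and a log2 fold change beyond 0.5. Of all 13704 genes tested, 3.23% were called higher and 3.12% lower in B6 females, and 4.11% higher and 2.79% lower in C3 females. The same 6 genes had every female above every male in both strains, a separation seen in 5.79% of all genes in B6 and 7.38% in C3. At an adjusted p under 0.05 with no fold required, 8 members passed in B6 and 9 in C3, against 34.6% and 40% of all genes. All 10 passed the filter on low counts, but Sult2a1, Sult2a2, Sult3a1 and Gm4794 passed through the female groups alone, so a difference in them was bound to be seen and their number is not support for a wider pattern. The median log2 fold change of the 10 genes was 1.23 in B6 and 0.88 in C3, against 0.0018 and 0.015 over all genes tested. These medians include the genes that passed through females alone, so they are no support for a wider pattern either. Setting those near 0 in males at their bounds could not move the medians, since they stay above the other members. In whole liver tissue, fewer cells of a type and less RNA per cell cannot be told apart.

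Sult3a1, whose product sulfates amines, was abundant in every female and nearly absent from males. In B6 females its levels were 832, 590.4, 346, 726 and 461 TPM, and in C3 females 496, 331, 303, 449 and 499 TPM. No male liver of either strain exceeded 0.36 TPM, and the highest male counts were 6 read pairs in B6 and 7 in C3 against at least 5243 in any female. Females and males did not overlap in either strain. The log2 fold change between females and males was 11.52 ± 0.38 (SE, n = 5 per group) in B6 and 11.25 ± 0.39 in C3, with edgeR adjusted p of 7.9e-14 and 1.6e-13.

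Gm4794, a close relative with 90.9% of 882 coding bases identical to Sult3a1, followed the same split at a lower level. Its levels were 106, 94.0, 35.2, 92.6 and 40.1 TPM in B6 females and 75.9, 43.7, 39.7, 59.0 and 74.3 TPM in C3 females. A single read pair was counted in 1 B6 male and none in the other 9 males. The summed counts in B6 gave a female-to-male ratio of 5521 (95% exact interval from 991 to 218106, counting error only), and in C3 the level was at least 261-fold higher in females against a floor of 3 counts per library. The ratio and the bound rest on different male counts and are not to be compared. The edgeR adjusted p was 2.1e-08 in B6 and 3.4e-08 in C3. No stretch of 125 bases, the length of 1 read, was identical between the annotated transcripts of the 2 genes.

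Sult2a1 and Sult2a2, sulfotransferases for hydroxysteroids and bile acids, were nearly absent from males and uneven among females. Sult2a1 was measured at 3.06, 11.4, 4.40, 0.68 and 0.60 TPM in B6 females and at 23.7, 22.3, 22.7, 3.64 and 10.4 TPM in C3 females. Sult2a2 was measured at 8.54, 21.4, 19.0, 2.42 and 0.74 TPM in B6 females and at 82.7, 65.5, 76.8, 17.1 and 40.8 TPM in C3 females. The 2 lowest values of each gene in each strain came from the same 2 livers, female replicates 4 and 5, which were sequenced in pool 1 in both strains. Pool and those livers cannot be told apart.

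No male liver had more than 1 read pair of either gene. For Sult2a1 the summed counts gave a female-to-male ratio of 357 (95% exact interval from 63.7 to 14124, counting error only) in B6 and of 336 (131 to 1233) in C3. For Sult2a2 the ratio was 630 (113 to 24907) in B6, and in C3, where no male had a count, the level was at least 209-fold higher in females. These intervals leave out the spread among females. The edgeR adjusted p was 3.8e-06 in B6 and 3.1e-08 in C3 for Sult2a1, and 1e-05 in B6 and 8.5e-08 in C3 for Sult2a2. Within single pools Sult2a1 differed by 2.23, 5.07 and 5.78 on the log2 CPM scale in B6 and by 5.15, 6.99 and 7.22 in C3 for pools 1, 2 and 3. The lowest value in each strain was thus that of pool 1. With at most 1 read pair in males and a prior count of 2, these values mainly follow the female counts. They are held down by the prior and are no estimates of the fold.

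The Sult2a genes are close in sequence. Over the 585 coding bases aligned, Sult2a1 and Sult2a2 were 97.9% identical. Of all 125-base stretches, 8.98% of those in Sult2a1 also occurred in Sult2a2, and 29.2% of those in Sult2a2 occurred in Sult2a1 or Sult2a5. Reads aligned to more than 1 place were left out of the counts by the authors, so the levels of these genes are uncertain and may be too low. Livers of both strains were aligned to the same build, mm9. Whether sequence differences between the strains altered the counts of the Sult2a genes was not tested. The annotated Sult2a2 transcript used for this count is shorter than that of Sult2a1.

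**Figure D1:**
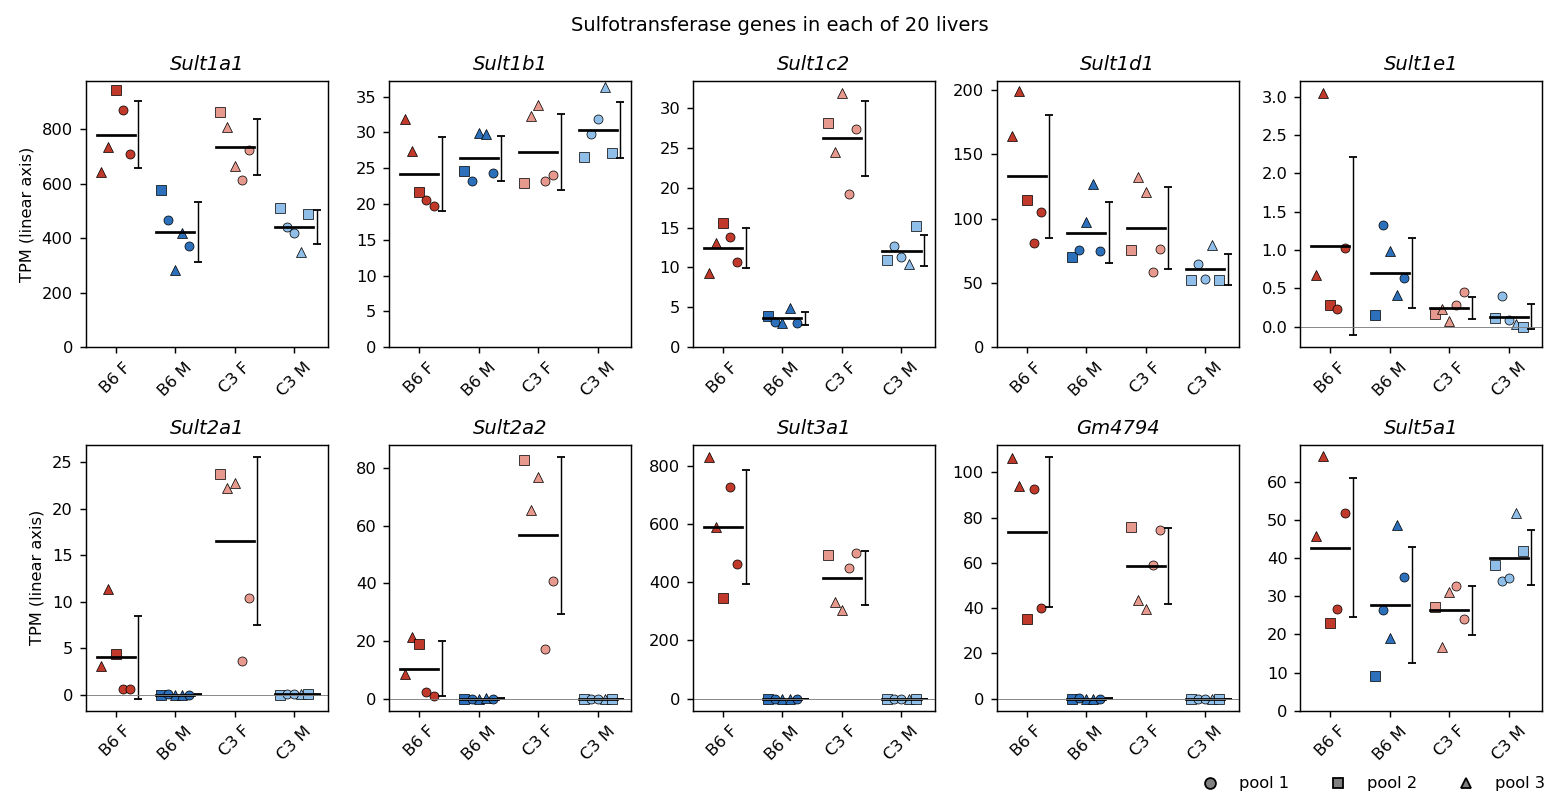
Levels in TPM (vertical, linear axis from 0) of the 10 genes in each of the 20 livers, by group (horizontal), with the symbol giving the sequencing pool; thick bars are means of 5 livers and thin bars SD. Sult2a1, Sult2a2, Sult3a1 and Gm4794 lie at or near 0 in all 10 males, and Sult1a1 females (613 to 944 TPM) lie above all males (281 to 577 TPM).

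Sult1a1, a phenol sulfotransferase and the most abundant of the 10 genes in all 4 groups, was higher in females by a smaller factor. Its levels were 643, 737, 944, 871 and 710.0 TPM in B6 females against 577, 466, 281, 421 and 371 TPM in B6 males. In C3 they were 863, 809, 667, 613 and 724 TPM in females and 511, 442, 418, 351 and 488 TPM in males. Every female exceeded every male. The log2 fold change was 0.78 ± 0.11 (adjusted p = 2.1e-05, edgeR) in B6 and 0.72 ± 0.11 (adjusted p = 6.5e-05) in C3. Within pools 1, 2 and 3 the difference was 0.79, 0.63 and 0.87 in B6 and 0.55, 0.68 and 0.91 in C3. Without a term for the pool the gene was no longer called in either strain (0.77, adjusted p = 0.0029 in B6 and 0.61, adjusted p = 0.013 in C3), nor without the 8 livers of pool 1 (0.78, adjusted p = 0.0035 and 0.84, adjusted p = 0.0031).

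Sult1c2 was higher in females of both strains and was the 1 member called between strains in both sexes. Levels were 9.28, 13.1, 15.6, 13.8 and 10.7 TPM in B6 females and 3.97, 3.16, 3.05, 4.87 and 3.02 TPM in B6 males. C3 livers had 28.2, 24.5, 31.96, 19.3 and 27.3 TPM in females and 10.9, 12.7, 11.3, 10.4 and 15.3 TPM in males. The sexes did not overlap in either strain, and C3 males lay in the range of B6 females. The female-to-male log2 fold change was 1.67 ± 0.16 in B6 (adjusted p = 3e-07, edgeR) and 1.04 ± 0.15 in C3 (adjusted p = 3.7e-05). The difference between these, -0.63 ± 0.22, did not pass the test (adjusted p = 0.14). Without the 8 livers of pool 1 the gene was still called by sex in B6 but not in C3 (1.16, adjusted p = 0.0033).

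The remaining 4 genes were not called in either strain. Sult1d1, which acts on dopamine and other catecholamines, had a mean level of 133 ± 48.0 TPM (SD, n = 5) in B6 females and 89.1 ± 23.9 in B6 males, and of 92.9 ± 31.8 in C3 females and 60.5 ± 11.96 in C3 males. Estimated log2 fold changes of 0.43 ± 0.10 (adjusted p = 0.0028, edgeR) and 0.32 ± 0.10 (adjusted p = 0.019) stayed under the fold required. Without B6 female replicate 4 the value in B6 was 0.51 and the gene was called (adjusted p = 0.00053). Sult1b1, which acts on thyroid hormones, was measured at -0.25 ± 0.06 in B6 (adjusted p = 0.0047) and -0.37 ± 0.06 in C3 (adjusted p = 0.00027), the latter past the p but not the fold. Its female and male ranges overlapped in both strains.

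Sult1e1, the estrogen sulfotransferase, was the least abundant member in females. In B6 females its levels were 0.67, 3.05, 0.29, 0.23 and 1.02 TPM and in B6 males 0.16, 1.32, 0.99, 0.42 and 0.63 TPM. The log2 fold change of 0.47 ± 0.56 (adjusted p = 0.54, edgeR) became -0.45 without B6 female replicate 2, which held 84 of the 134 read pairs of that group. In C3 no liver had more than 9 read pairs, and the log2 fold change was 0.49 ± 0.94 (adjusted p = 0.70).

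Sult5a1 had opposite signs in the 2 strains. In B6 the females had 45.7, 66.9, 22.9, 26.6 and 52.0 TPM and the males 9.17, 26.4, 19.0, 48.7 and 35.0 TPM, and the ranges overlapped. In C3 the females had 27.3, 16.6, 31.1, 32.8 and 24.1 TPM and the males 38.2, 33.9, 34.7, 51.8 and 42.0 TPM, so that every female lay below every male. A separation of this direction was seen in 5.68% of all genes tested. The log2 fold change was 0.52 ± 0.30 in B6 (adjusted p = 0.20, edgeR) and -0.82 ± 0.31 in C3 (adjusted p = 0.043), and neither was called. The difference between the strains was -1.34 ± 0.44 and did not pass the test (adjusted p = 0.11).

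No member was called for a difference of the sex effect between strains, by edgeR or by DESeq2, against 0.401% of all genes, and none passed at an adjusted p under 0.05 either, against 2.96%. The lowest unadjusted p of the members by edgeR were 0.0093 for Sult1c2 and 0.0065 for Sult5a1. Ordered by p, these 2 genes ranked 941 and 781 among the 13704 genes tested, so many other genes had a lower p. For Sult2a1, Sult2a2 and Gm4794 the difference of the sex effect between strains could not be measured, since neither male group exceeded 1 count per library.

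C3 and B6 livers of the same sex were then compared. Among females Sult1c2, Sult2a1 and Sult2a2 were higher in C3 and no member was lower. Among males only Sult1c2 was called, again higher in C3. Over all genes 4.63% were called higher and 4.77% lower in C3 females, and 4.09% higher and 5.55% lower in C3 males. At an adjusted p under 0.05 alone 6 members passed in females and 3 in males, against 32.9% and 34.5% of all genes. Among the 6 were Sult1e1, which passed the filter on low counts through B6 livers alone, and Sult2a2, which needed C3 females to pass it. Sult1c2 rose by a log2 fold change of 1.14 ± 0.14 in females (adjusted p = 5.9e-06, edgeR) and 1.77 ± 0.16 in males (adjusted p = 8.9e-08), with no overlap between strains in either sex. All 5 C3 livers lay above all 5 B6 livers for 6.34% of genes in females and 6.74% in males. Within the 3 pools the strain difference ran from 0.88 to 1.41 in females and from 1.51 to 1.98 in males.

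Among females Sult2a1 was higher in C3 by 2.30 ± 0.34 (adjusted p = 4e-05, edgeR) and Sult2a2 by 2.80 ± 0.36 (adjusted p = 2.7e-05). Sult2a2 had only 9 read pairs in its lowest B6 female and needed C3 females to pass the filter on low counts. A higher level of Sult2a2 in C3 was thus favoured by the filter. The strains overlapped for both genes, since C3 livers of pool 1 lay among the B6 values, both of them for Sult2a1 and 1 for Sult2a2. Compared within pools 1, 2 and 3, the difference was 3.15, 2.42 and 1.97 for Sult2a1 and 4.21, 2.14 and 2.45 for Sult2a2. Neither gene was called without a pool term, at 2.08 for Sult2a1 (adjusted p = 0.012) and 2.5 for Sult2a2 (adjusted p = 0.0083). Leaving out all 8 livers of pool 1, a choice made after seeing the data, left Sult2a2 called (2.25, adjusted p = 0.00038) but not Sult2a1 (1.91, adjusted p = 0.0062) or, at the threshold itself, Sult1c2 (1.22, adjusted p = 0.0010).

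The other members were not called between strains. Sult1b1 was estimated at 0.24 ± 0.06 in females (adjusted p = 0.0061) and 0.35 ± 0.06 in males (adjusted p = 0.00025, edgeR), the latter past the p but short of the fold. Sult5a1 was at -0.55 ± 0.31 in females (adjusted p = 0.19) and 0.79 ± 0.32 in males (adjusted p = 0.063). For Sult3a1 in females the log2 difference was -0.42 (95% interval from -0.82 to -0.02, adjusted p = 0.13, edgeR), but within pool 2 C3 was higher by 0.55 and within pool 3 it was -1.08. For Gm4794 in females it was -0.24 (from -0.82 to 0.35). For Sult1a1 it was -0.01 (from -0.22 to 0.19) in females and 0.05 (from -0.16 to 0.26) in males. Sult1e1 was lower in C3 by the estimate in both sexes, at -2.08 ± 0.66 in females (adjusted p = 0.021) and -2.10 ± 0.80 in males (adjusted p = 0.050). No C3 liver had more than 9 read pairs of Sult1e1, and the gene passed the filter on low counts through B6 livers alone. A lower level in C3 was thus favoured by the filter. Sult1d1 was estimated at -0.45 ± 0.10 in females (adjusted p = 0.0018; -0.53 and called without B6 female replicate 4) and -0.34 ± 0.10 in males (adjusted p = 0.015).

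**Figure D2:**
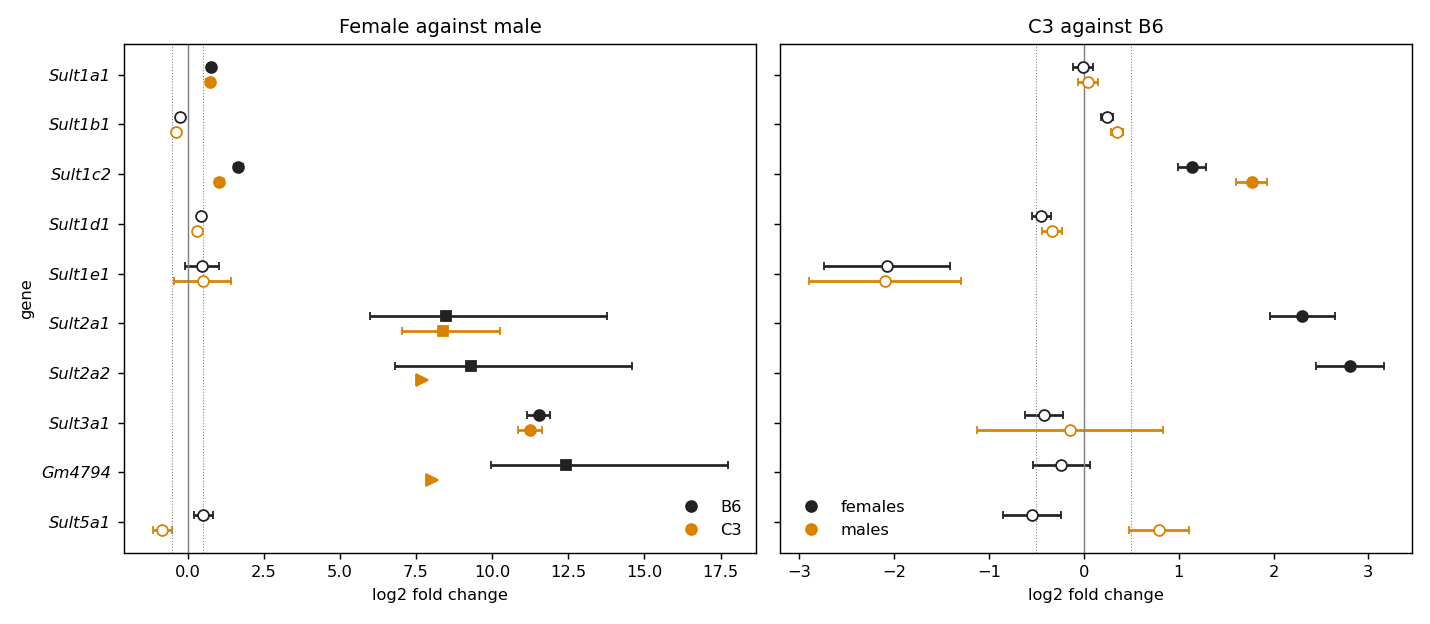
Log2 fold changes (horizontal) of the 10 genes (vertical) between females and males of each strain (left) and between C3 and B6 in each sex (right). Circles are edgeR estimates with standard errors, filled where called; squares are ratios of summed counts with 95% exact intervals and triangles lower bounds, both for genes with at most 1 read pair in any male; dotted lines mark the fold required. Sult3a1 stands at 11.52 in B6 and 11.25 in C3 and Sult1c2 is called in all 4 comparisons.

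Summed over the 10 genes alone, the level was higher in females and its make-up differed. The sum was 1674 ± 200 TPM (SD, n = 5) in B6 females and 571 ± 101 in B6 males, and 1455 ± 165 in C3 females and 585 ± 47.2 in C3 males. No female sum was below 1276 TPM and no male sum above 685 TPM. The female mean was 2.93 times the male mean in B6 and 2.49 times in C3. With the other cytosolic sulfotransferases of the table added, among them the abundant Sult2a8, the sums were 2611 ± 192 and 1461 ± 128 TPM in females and males of B6 and 2021 ± 134 and 1454 ± 74.1 TPM in those of C3, and the ratios fell to 1.79 and 1.39. Sult1a1 made up 47.3% of the sum over the 10 genes in B6 females and 73.4% in B6 males, and 50.4% in C3 females and 75.2% in C3 males. Of the wider sum it made up 30.1% and 28.9% in females and males of B6 and 36.3% and 30.6% in those of C3. Sult3a1 contributed 34.8% in B6 females and 28.6% in C3 females, and at most 0.063% in any male. Sult2a1 and Sult2a2 together were minor in females, at 0.24% and 0.62% in B6 and 1.12% and 3.83% in C3.

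**Figure D3:**
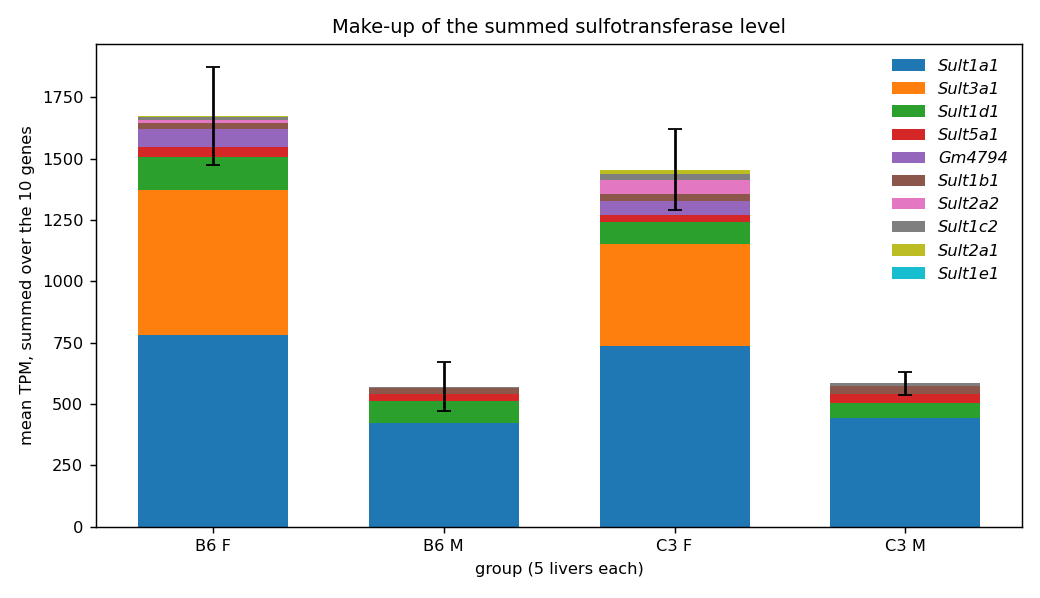
Mean TPM of each of the 10 genes stacked to their sum (vertical, linear axis from 0) in the 4 groups of 5 livers (horizontal), with the error bar giving the SD of the sum. The female sums of 1674 and 1455 TPM hold a large Sult3a1 part that the male sums of 571 and 585 TPM lack.

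In order of mean TPM, Sult1a1 came first in every group. Sult3a1 was second in both female groups, where its range overlapped that of Sult1a1 in B6 but not in C3. Sult1d1 was the third in females and second in males, and in males it was separated from the genes next to it on both sides. Below it the ranges of neighbours in the order overlapped in most cases. In females the level of Sult3a1 was 8.66 ± 2.03 times that of Gm4794 in B6 and 7.21 ± 0.54 times in C3, and the level of Sult2a2 was 2.76 ± 1.24 times that of Sult2a1 in B6 and 3.68 ± 0.66 times in C3.

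Whether the genes varied together among livers of 1 group was examined by correlating deviations from the group mean (log2 CPM) over 45 pairs. After adjustment over the 45 pairs, 3 pairs had p under 0.05, and each was a pair of neighbours on a chromosome. Sult2a1 and Sult2a2 gave Pearson's r = 0.941 and Spearman's rho = 0.988 over 10 females (adjusted permutation p = 0.0018 for both). With the pool means removed r was 0.881, and without the 2 livers farthest from the median it was 0.937. Sult3a1 and Gm4794 gave r = 0.945 (adjusted permutation p = 0.0018) and rho = 0.879 (adjusted permutation p = 0.021) over the same females, with r = 0.688 after removal of pool means and 0.904 without the 2 farthest livers.

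Sult1b1 and Sult1d1 gave r = 0.834 (adjusted permutation p = 0.0054) and rho = 0.782 (adjusted permutation p = 0.0099) over 20 livers, and 0.830 without the 2 farthest. With pool means removed r fell to 0.065, so the relation did not hold within pools. Both genes were higher in pool 3 than in pool 1, by 0.36 for Sult1b1 and 0.69 for Sult1d1 on the log2 scale (adjusted p = 5e-06 and 1e-06 for the pool term, edgeR). The pool term passed an adjusted p under 0.05 in 60.1% of all genes tested. The median r was 0.834 over the 5 neighbouring pairs and 0.0824 over the other 40, and with pool means removed the medians were 0.479 and 0.173.

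**Figure D4:**
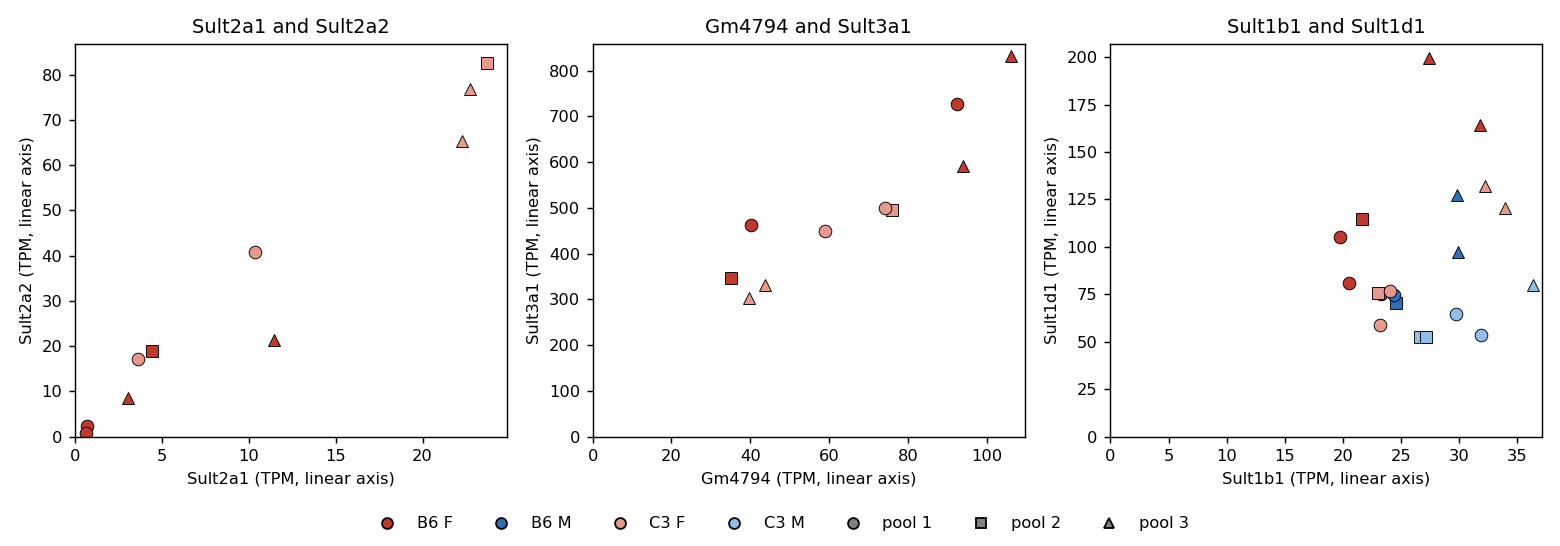
TPM of 1 gene against its neighbour (both axes linear from 0) in each liver for Sult2a1 and Sult2a2 (10 females), Gm4794 and Sult3a1 (10 females) and Sult1b1 and Sult1d1 (20 livers), with colour for the group and symbol for the pool. The first 2 pairs rise together (r = 0.941 and 0.945 for deviations from group means), and for the last pair the pool 3 livers of each group lie highest on both axes.

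Over the 20 livers, the gene outside the list whose log2 CPM was most like that of each member was named as a description, since all such values share the sex and strain groups. For Sult3a1 it was Xist (r = 0.993), for Gm4794 Cyp2b13 (r = 0.991), for both Sult2a1 and Sult2a2 Sult2a5 (r = 0.975 and 0.982), for Sult1c2 Tcf24 (r = 0.965) and for Sult1a1 Serpina6 (r = 0.953). For Sult1b1 it was Gmfb (r = 0.932), for Sult1d1 Cept1 (r = 0.919), for Sult1e1 Gm10037 (r = 0.787) and for Sult5a1 Soga1 (r = 0.670). Sult2a5, Xist and Cyp2b13 are, like the members they were nearest to, at or near 0 TPM in males.

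Of the other cytosolic sulfotransferases, 12 were listed, 10 were in the table and 4 passed the filter. Sult2a5 and Sult2a6 were not counted in any male. In C3 both were higher in females than in males, by at least 94.4-fold and 24.6-fold (adjusted p = 3.7e-05 and 8e-05, edgeR). They were not called in B6. Both passed the filter on low counts through females alone, so a higher level in females was favoured by the filter. Sult2a7 was measured at 179 ± 89.1 TPM in B6 females and 4.27 ± 1.85 in B6 males, but at 7.30 ± 2.98 in C3 females and at 1.02 to 1.82 in C3 males. Its strain difference in females was -4.43 ± 0.35 (adjusted p = 1.2e-08, edgeR), opposite in sign to that of Sult2a1 and Sult2a2. Sult2a7 was missing from the transcripts searched for shared stretches, so its sharing of reads with other genes was not checked. Sult2a5 (3.14 ± 0.50, adjusted p = 0.00067) and Sult2a6 (2.62 ± 0.44, adjusted p = 0.00099) were called higher in C3 than in B6 females by edgeR, with overlap between the strains. Each had a B6 female with no count and needed C3 females to pass the filter, so this direction was also favoured. The sex effect of Sult2a7 was 5.24 ± 0.37 in B6 and 2.16 ± 0.45 in C3. The difference of -3.07 ± 0.62 between these had adjusted p = 0.0081 by edgeR, short of the call. Sult2a8, named after its values were seen, was higher in level than any member in males (886 ± 109 TPM in B6 and 867 ± 118 in C3). It was lower in C3 females than in C3 males, at a log2 fold change of -0.86 ± 0.08 (adjusted p = 1e-07, edgeR). Between the sexes of B6 the value was -0.34 ± 0.07 (adjusted p = 0.0017) and was not called.

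Of 19 listed for synthesis, transport and breakdown of PAPS and sulfur, 17 were tested, and in each strain 1 was higher and 1 lower in females. Papss2, a PAPS synthase, was measured at 263 ± 56.3 TPM in B6 females and 128 ± 55.2 in B6 males, and at 190.1 ± 46.3 in C3 females and 90.4 ± 15.8 in C3 males. Its log2 fold change was 0.95 ± 0.18 in B6 (adjusted p = 5.4e-04, edgeR) and 1.06 ± 0.18 in C3 (adjusted p = 2.3e-04). Those called lower in females were Mpst in B6 (-0.52 ± 0.07, adjusted p = 3.1e-05), a mercaptopyruvate sulfurtransferase, and Csad in C3 (-2.30 ± 0.24, adjusted p = 9.8e-07), which acts in taurine synthesis. In the other strain both estimates were also negative but not called by edgeR. They were -0.32 ± 0.07 for Mpst in C3 (adjusted p = 0.0029) and -1.10 ± 0.23 for Csad in B6 (adjusted p = 0.0011). Between strains Csad was lower in C3 females (-2.14 ± 0.24, adjusted p = 1.2e-06).

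Of 13 sulfatases, which remove sulfate, 10 were tested. Arsa, the lysosomal arylsulfatase A, was lower in females of both strains (-1.06 ± 0.09 in B6 and -1.16 ± 0.09 in C3, adjusted p = 4.6e-08 and 1.8e-08, edgeR) and no other was called by sex. Of 24 Golgi sulfotransferases, which act on carbohydrates and proteins, 17 were tested and only Chst14 in C3 was called by sex, at 0.84 ± 0.17 (adjusted p = 9.6e-04). The median log2 fold change between the sexes was -0.09 in B6 and -0.01 in C3 for the PAPS list, -0.07 and -0.12 for the sulfatases, and 0.06 and 0.10 for the Golgi enzymes. Between strains, Arsg was higher and Arsb lower in C3 of both sexes, Tpst2 was higher in C3 of both sexes and Gal3st1 lower in C3 males, genes named after their values were seen, and no other gene of the PAPS, sulfatase or Golgi lists was called beside Csad.

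Marker levels of other cell types moved with sex. Summed sinusoidal endothelial markers were 225 to 263 TPM in B6 females and 168 to 192 in B6 males, and stellate cell markers 268 to 347 and 205 to 251. In C3 the ranges for females and males were 186 to 234 and 154 to 187 for endothelial and 212 to 261 and 161 to 205 for stellate markers. Summed Kupffer cell markers were 330 to 461 TPM in B6 females and 197 to 315 in B6 males, and 228 to 346 and 139 to 211 in C3. Hepatocyte markers were also higher in females, at 105729 to 136201 against 79444 to 104763 TPM in B6 and 145237 to 173847 against 108467 to 135270 in C3. The part of these in the differences of Sult1a1 and Sult1c2 was not tested. All 4 adipocyte markers were low, with sums of 1.79 to 6.35 TPM in B6 males and at most 0.80 elsewhere, and Lep at 0. Summed lymphocyte markers (4 of 5 in the table) were at most 5.03 TPM, pancreas acinar markers at most 1.905 TPM, cholangiocyte markers 3.29 to 6.07 TPM and erythroid markers at most 1.05 TPM with Hba-a1 and Hbb-b1 at 0. Of the 3 intestine markers Cdx2 was at 0 in every liver, Vil1 had a median under 1 TPM and the sum of all 3 was 77.1 to 191 TPM.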

How the data were processed

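Total RNA depleted of ribosomal RNA was sequenced as stranded paired-end libraries. Per the submitters' processing notes the tools were cutadapt 1.9.1, STAR 2.5.1b and featureCounts of Subread 1.5.0-p1, with build mm9. The authors deposited unnormalized counts, each a read pair assigned to a gene, and a table of TPM values. In both deposited tables the headings of the symbol and identifier columns are exchanged, and symbols were read from the column that holds them. The deposited counts were fitted here with edgeR 4.0.16 (R 4.3.3, TMM scaling, filterByExpr, quasi-likelihood) on all 20 libraries with terms for group and pool, and p-values were adjusted by Benjamini-Hochberg over the 13704 genes tested. Genes were called at an adjusted p under 0.001 and a log2 fold change beyond 0.5. The SE of a log2 fold change was derived as its absolute value divided by the square root of the quasi-likelihood F. The 95% intervals of log2 fold changes were built from that SE, and both are rough where a group is near 0 counts. DESeq2 1.42.0 and limma 3.58.1 (log2 of TPM plus 1 or 0.1) were alternatives, with other scalings, no filter, no pool term, the replicate block, the libraries compared alone and each library left out. The script was tested on simulated data. A count of 0 was set at a floor of 3 counts per library for lower bounds, and intervals for ratios of few counts were 95% exact binomial intervals. They cover counting error only, as does the precision that depth gives. Correlations used log2 CPM (prior count 2) and two-sided permutation within groups. Within-pool values are differences of means of log2 CPM with no test, and the tests of the pool term and the fit without pool 1 were chosen after seeing the data. The labels give 5 biological replicates per group. Libraries of 1 group differed by more than counting noise (chi-square per degree of freedom of at least 19.9), and each was counted as 1 sample. All 10 sulfotransferase genes are named, with the called genes of the 3 largest changes by sex in each list and the gene most alike to each member. The members and lists were chosen with earlier results of these data known.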

Additional observations from a re-analysis of the deposited data

Results flagged for a closer look

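In B6 females, Sult1e1 in replicate 2 stood apart at 3.05 TPM, while the other 4 livers of that group had 0.23 to 1.02 TPM. Its gap to the nearest liver was 0.720 of the group's range, above the 0.71 that Dixon's test allows for 5 values. Of 34 combinations of gene and group examined 1 was apart, and chance alone puts about 5% apart. No cause was tested.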

How the results depend on the processing

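The number of sulfotransferase genes called stayed within 1.5 times in most settings. By sex it was 5 to 8 of 10 in B6 and 4 to 9 in C3. Between strains in females 3 were called, but 1 with no pool term, 1 without pool 1 and 6 at an adjusted p under 0.05; in males 1 was called, but 3 at that looser threshold. With 1 library left out, the count in females ran from 3 to 4. The cause was not tested. With the replicate number as a block the counts were 5 in B6 and 6 in C3 by sex, 2 in females and 1 in males between strains and 0 for the interaction, with Sult2a2 lost in B6 by sex (adjusted p = 0.0012) and in females between strains (adjusted p = 0.0016). Correlations of same-numbered livers ran from -0.461 to 0.618 over the 4 comparisons, and the labels name nothing that same-numbered livers share. Under limma with TPM plus 1, Sult2a1 was not called by sex in B6 (adjusted p = 0.0011), and between females it was not called with limma plus 0.1 (adjusted p = 0.0016) or with the libraries compared alone (adjusted p = 0.0028). The values whose sign changed were not called in any setting. Between strains, Sult1a1 in males changed to -0.0032 and -0.0031 with limma on TPM plus 1 and plus 0.1, Sult3a1 in males to 0.0084 with limma plus 1, and Sult1a1 in females to 0.066 without pool 1. For the interaction, Sult1e1 became -0.098 with limma plus 1 and -0.19 without pool 1, Sult1d1 0.030 with no pool term, and without pool 1 Sult1a1 was 0.054 and Sult3a1 0.39. With 1 library left out in turn, the estimate ran from -0.096 to 0.048 for Sult1a1 in females, -0.030 to 0.11 in males and -0.74 to 0.11 for Sult3a1 in males between strains. For the interaction it ran from -0.48 to 1.08 (Sult1e1), -0.13 to 0.014 (Sult1a1) and -0.62 to 0.32 (Sult3a1), and by sex Sult1e1 ran from -0.45 to 0.85 in B6 and -0.035 to 1.46 in C3. Depth limits Sult1e1 in C3 and the 4 genes near 0 in males, where a count of 0 allows up to 3 counts.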
